A study of Homo sapiens with 8 samples.

Results

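The comparison described here set wild type NR4A1 (NR4A1 WT) directly against NR4A1 CEAA, a form with a mutated DNA binding domain, in Kasumi-1 cells, an established acute myeloid leukemia line that carries the AML-ETO fusion. It used the 3 arrays titled for NR4A1 WT and the 2 arrays titled for NR4A1 CEAA, which are 5 of the 8 arrays of the series. The other 3 arrays came from cells that received GFP mRNA as the control, and they enter below only to share the estimate of the spread and to show where the control level lay. Cells of all 3 groups were grown in RPMI1640 medium with FBS, were electroporated with in vitro transcribed mRNA and were harvested at 6 h, so that every group carried an electroporated mRNA and the protein came from a short pulse and not from a stable clone. The labels do not say whether replicates were separate cultures, so that the p-values measure the spread between these samples, which may be technical. Transcripts were read on Affymetrix human genome arrays, with 1 array per sample, and levels are given as log2 intensities after Robust Multiarray Analysis (RMA). Each of 19775 genes was followed by the probe set, among those listed with exactly 1 gene symbol, that had the highest mean over the 8 arrays, and a level of a probe set was compared only with its own level in another sample, apart from a rough check of the cell line.

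NR4A1 is an orphan nuclear receptor of the immediate early class that acts as a tumor suppressor in myeloid cells. The receptor binds DNA through a pair of zinc fingers, as a monomer at the NGFI-B response element (NBRE, letters AAAGGTCA) and as a dimer at the related Nur response element, and it can also act through contacts with other proteins. The comparison of both forms asks which transcripts depend on an intact DNA binding domain.

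The NBRE is shown here in the promoters of the genes named in the text because it holds the letters that the intact DNA binding domain is known to read. The 300 bases from 250 before to 50 after each start site were taken from RefSeq (GRCh38.p14) and searched on both strands. Of 82 named genes searched, 65 had a promoter in the table. The full motif is shown for 2 of these, ENO3 and STAT5A, which were both higher with NR4A1 WT. These 2 are examples and are not given as a full count of the named genes that hold it. In both it lies on the reverse strand, so that it reads TGACCTTT, shown in capitals, and it starts at position -173 from the start site in ENO3 (chr17:4950900-4950999, forward strand) and at -42 in STAT5A (chr17:42288410-42288497, forward strand).
ENO3: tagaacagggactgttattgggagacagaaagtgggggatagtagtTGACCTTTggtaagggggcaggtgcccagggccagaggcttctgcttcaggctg
STAT5A: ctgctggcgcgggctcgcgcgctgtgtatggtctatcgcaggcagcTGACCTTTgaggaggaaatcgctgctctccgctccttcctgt
These letters were found in 1.22% of all 35116 windows. Among genes with a promoter, the share was 1.29% (198) of the 15382 tested, 1.30% of the 3008 higher with NR4A1 WT than with NR4A1 CEAA and 1.20% of the 2174 lower. It was 2.35% (4 of 170) among those higher by at least 2-fold, and 0 of 125 among those lower by at least 2-fold. These shares are a description of short windows, and no match in such a window says nothing about binding elsewhere.

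Arrays of one form resembled each other more than arrays of different forms. The SD over genes of the difference between a pair of arrays was 0.189 to 0.208 for the 3 pairs of NR4A1 WT arrays, 0.147 for the pair of NR4A1 CEAA arrays, and 0.358 to 0.409 for the 6 pairs that joined the forms. Against GFP it was 0.319 to 0.341 with NR4A1 WT and 0.248 to 0.275 with NR4A1 CEAA. As a rough check of the cell line, all 10 measured markers of a myeloid blast read at or above the median of the probe sets in every group. So did 2 of 3 markers of B cells, 2 of 4 each of T cells and fibroblasts, and 1 of 4 of epithelium. Of 2 erythroid markers, 1 did so with NR4A1 CEAA and 2 in the other groups. The check is therefore weak, and levels of different probe sets are not amounts and do not show cell identity. No array stood apart from its group.

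The delivered mRNA could not be followed itself. The probe set for NR4A1 read 6.47, 6.61 and 6.53 with NR4A1 WT, 6.56 and 6.52 with NR4A1 CEAA, and 6.58, 6.50 and 6.28 with GFP, so that the levels overlapped in all 3 groups (adjusted p = 0.98, limma, between the forms). Whether its probes lie within the delivered sequence was not known here, and it therefore checks neither the labels nor the dose. Of the related receptors, NR4A2 read 5.66, 5.53 and 5.49 with NR4A1 WT against 6.26 and 6.03 with NR4A1 CEAA, a difference of -0.58 ± 0.10 (SE, adjusted p = 0.0032), although its second brightest probe set gave -0.16 and did not pass. NR4A3 showed no difference beyond the spread (-0.05 ± 0.10, adjusted p = 0.75).

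Both forms gave widely different transcriptomes. At an adjusted p under 0.05 in limma, 3568 genes (18.0% of those tested) were higher with NR4A1 WT than with NR4A1 CEAA and 2657 (13.4%) were lower. The 3 NR4A1 WT arrays did not overlap the 2 NR4A1 CEAA arrays in any of these 6225 genes, and such a separation was found in 53.0% of all genes tested (30.4% higher and 22.6% lower with NR4A1 WT). For comparison, 9.97% of genes were higher and 10.3% lower with NR4A1 WT than with GFP, and 7.14% and 12.1% with NR4A1 CEAA than with GFP, in the same fit and with the same GFP arrays. Most differences were small. The median fold was 1.33 in either direction, while 861 genes were higher and 710 were lower by at least 1.5-fold, 205 and 170 by at least 2-fold, and 35 and 7 by at least 4-fold. Rank Product, the test named in the methods of the study, passed 373 genes (1.89%) as higher and 173 (0.875%) as lower, all of which limma passed as well. The median difference over all genes was 0.03. The split of 57.3% higher among the genes passed became 49.98% when the values were quantile normalized again, with 3093 higher and 3096 lower.

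**Figure D1:**
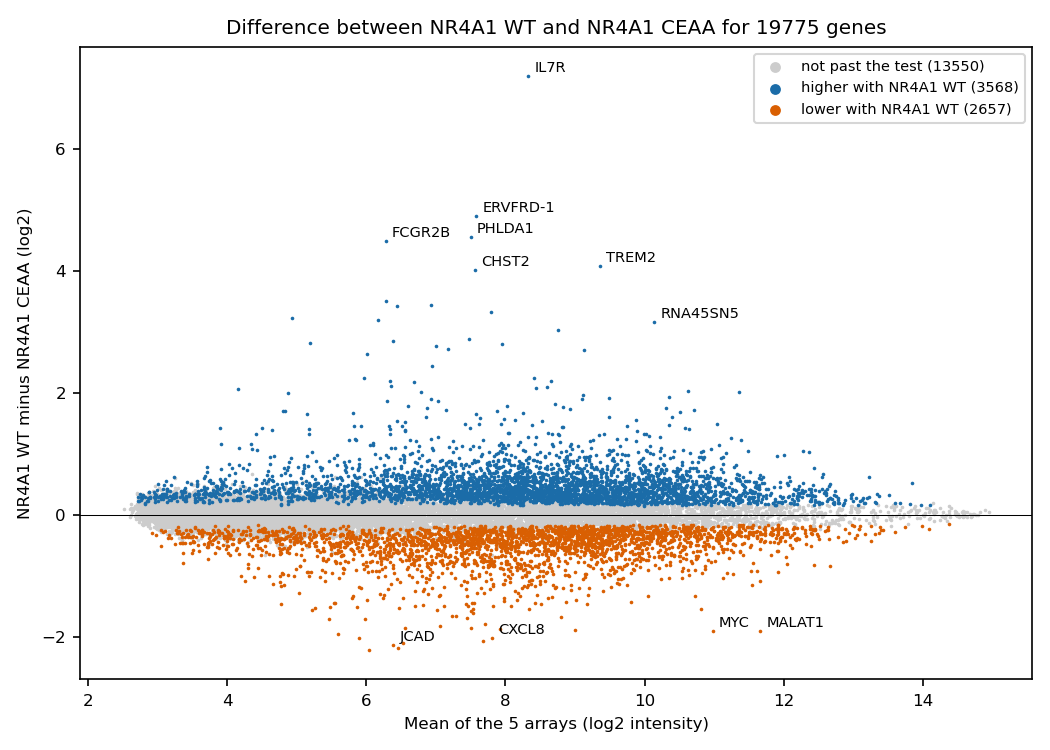
NR4A1 WT minus NR4A1 CEAA (log2, vertical axis) is plotted against the mean of the 5 arrays (log2 intensity, horizontal axis) for each of 19775 genes, with the 3568 genes higher with NR4A1 WT in blue, the 2657 lower in orange and the others in grey. The upper side reaches 7.21 in IL7R, whereas the lower side ends at -2.22.

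The largest differences lay on the side of genes higher with NR4A1 WT, and GFP sat with NR4A1 CEAA in all 12 at the top. IL7R, the receptor chain for interleukin-7 that lymphoid progenitors depend on, read 11.14, 11.25 and 11.24 with NR4A1 WT, 3.96 and 4.05 with NR4A1 CEAA, and 3.86, 3.98 and 3.90 with GFP. The NR4A1 WT arrays were far above all others, with a difference of 7.21 ± 0.06 (SE) or 148-fold (adjusted p = 8.4e-10), and its other probe set was also higher. ERVFRD-1, the gene of the placental fusion protein syncytin-2, read 9.42, 9.67 and 9.52 with NR4A1 WT against 4.63 and 4.64 with NR4A1 CEAA (30.0-fold, adjusted p = 5.5e-08). PHLDA1, a pleckstrin homology protein that responds to growth factors and stress, read 9.20, 9.38 and 9.38 against 4.89 and 4.63 (23.6-fold, adjusted p = 6.1e-06). Of its 5 other probe sets 4 were higher, although the second brightest did not pass. FCGR2B, the inhibitory receptor for the constant part of IgG, read 8.22, 7.87 and 8.14 with NR4A1 WT and 3.64 and 3.53 with NR4A1 CEAA, with GFP at 3.80, 4.02 and 3.63 (22.4-fold, adjusted p = 9.6e-07). For each of these 4 genes both NR4A1 CEAA arrays were within or near the range of GFP, and NR4A1 CEAA against GFP did not pass the test.

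The remaining genes at the top belonged to several functions. CHST2, a sulfotransferase of carbohydrate chains, was higher by 4.02 on the log2 scale, CAVIN2, a caveolar coat protein, by 3.51, MAP7, a microtubule-associated protein, by 3.45 and SYT1, the calcium sensor of synaptic vesicles, by 3.42. ENO3, the muscle form of the glycolytic enzyme enolase and a carrier of the NBRE letters shown above, read 9.04, 9.20 and 9.12 with NR4A1 WT, 5.73 and 5.85 with NR4A1 CEAA, and 5.95, 5.88 and 6.13 with GFP (3.33 ± 0.09, adjusted p = 8.6e-07). The second brightest probe sets of CHST2, ENO3 and ADAMTS15 (a secreted metalloprotease, 3.19) did not pass the test, with differences of 0.38, 0.33 and 0.00092. C3orf80 was higher by 3.23 and had a single probe set.

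TREM2, the lipid-sensing receptor of macrophages and microglia, moved in opposite directions with both forms. It read 10.87, 11.03 and 11.06 with NR4A1 WT, 6.84 and 6.98 with NR4A1 CEAA, and 7.53, 7.45 and 7.55 with GFP. NR4A1 WT was above and NR4A1 CEAA below every GFP array, and the forms differed by 4.08 ± 0.08 (16.9-fold, adjusted p = 8.6e-08).

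Genes lower with NR4A1 WT differed by less, and 7 of the 12 largest differences had GFP with NR4A1 CEAA. JCAD, an endothelial cell junction protein, read 5.54, 5.48 and 5.57 with NR4A1 WT, 7.69 and 7.66 with NR4A1 CEAA, and 7.24, 7.47 and 7.41 with GFP, a difference of -2.14 ± 0.08 (adjusted p = 2.2e-06). CXCL8, the neutrophil chemoattractant interleukin-8, read 7.10, 7.18 and 6.71 against 9.21 and 8.82, with GFP at 8.86, 8.52 and 8.55 (-2.02 ± 0.17, adjusted p = 9.9e-05). The NR4A1 WT arrays were below all others in both genes, and their other probe sets were lower as well. TRERF1, a zinc finger transcriptional regulator (-2.07), STC2, a secreted glycoprotein induced by cell stress (-2.01), CDC42EP3, an effector of the GTPase CDC42 (-1.95), and NOG, an antagonist of bone morphogenetic proteins (-1.89), were likewise lower. RET, a receptor tyrosine kinase, was lower (-1.87), but neither of its 2 other probe sets passed. CDC42EP3 varied more within NR4A1 WT, with values of 5.06, 5.36 and 4.01.

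GFP lay between both forms in 4 of the 12. MYC, the transcription factor that drives growth and ribosome synthesis, read 10.24, 10.23 and 10.18 with NR4A1 WT, 12.11 and 12.14 with NR4A1 CEAA, and 11.52, 11.59 and 11.55 with GFP. No array of any group overlapped another group, and the direct difference was -1.91 ± 0.05, or 3.75-fold lower with NR4A1 WT (adjusted p = 9.1e-07). Against GFP the same gene differed by -1.33 with NR4A1 WT and by 0.57 with NR4A1 CEAA (adjusted p = 8.5e-04 in the latter). KCTD12, an auxiliary subunit of GABA-B receptors, read 5.37, 4.89 and 5.16 against 7.27 and 7.46, with GFP at 6.83, 6.51 and 6.51 (-2.22 ± 0.15, adjusted p = 3.4e-05). MALAT1, a long noncoding RNA of nuclear speckles, read 11.62, 10.62 and 10.44 against 12.87 and 12.74, with GFP at 11.76, 11.76 and 11.08. Its NR4A1 WT and GFP arrays overlapped, the difference between both forms was -1.91 ± 0.35 (adjusted p = 0.0035), and 10 of its 11 other probe sets were also lower. SLC10A4, a transporter of synaptic vesicles, was lower (-2.11 ± 0.24).

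ZNF800, a zinc finger gene, was the exception among the 12 in that GFP sat with NR4A1 WT. It read 5.74, 5.64 and 5.37 with NR4A1 WT, 7.72 and 7.81 with NR4A1 CEAA, and 5.87, 6.17 and 5.84 with GFP, so that the NR4A1 CEAA arrays alone stood apart. Its direct difference was -2.18 ± 0.13 (adjusted p = 2.2e-05), and 1 of its 3 other probe sets was lower, while the second brightest gave -0.14 and did not pass.

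**Figure D2:**
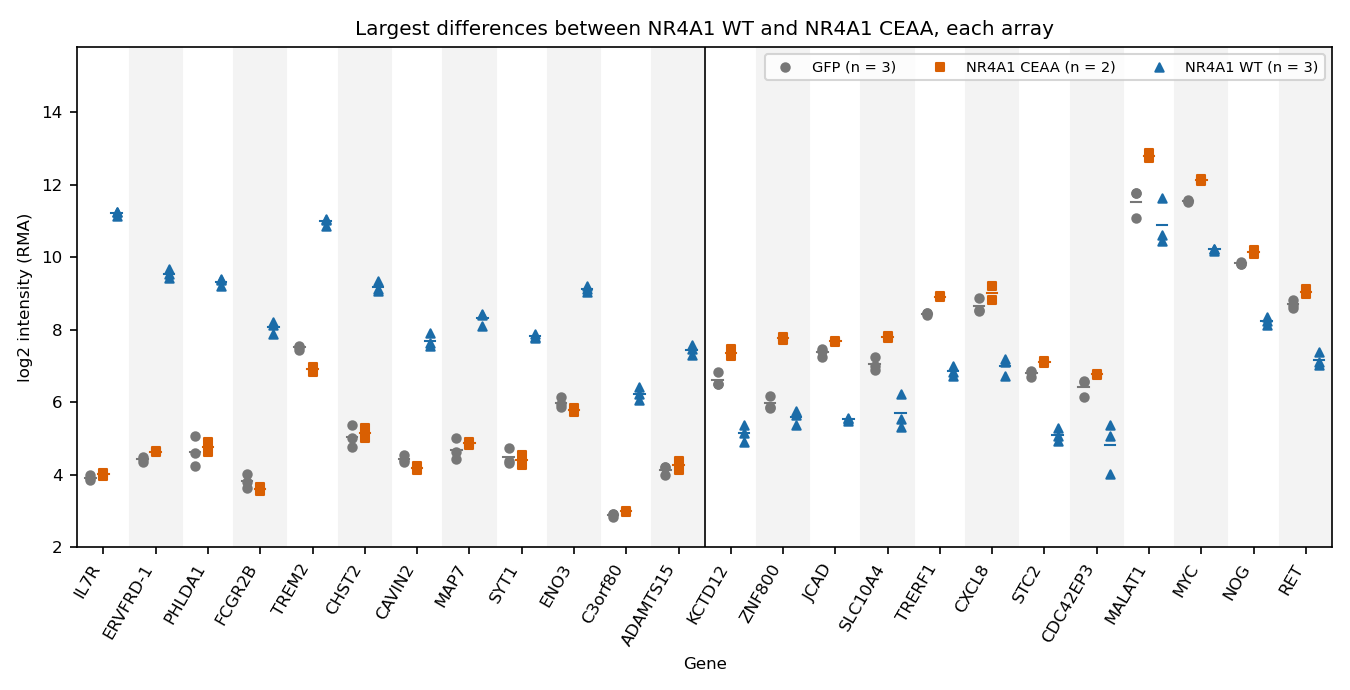
Each symbol is the log2 intensity of 1 array for the 12 largest positive (left of the line) and 12 largest negative (right) differences between NR4A1 WT (triangles, n = 3) and NR4A1 CEAA (squares, n = 2), with GFP (circles, n = 3) beside them and short lines at the group means. GFP and NR4A1 CEAA are close in the left panel, whereas ZNF800 on the right has GFP close to NR4A1 WT.

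The place of GFP relative to both forms describes which of them lay further from the control. It does not show that the nearer form stayed at the control level. In TREM2 and JCAD GFP lay with NR4A1 CEAA, and NR4A1 CEAA still differed from GFP (adjusted p = 0.0023 and 0.027, limma). For each gene past the test the distance of the GFP mean from the NR4A1 CEAA mean was divided by the distance between the forms, and genes were counted as having GFP with NR4A1 CEAA (-0.25 to 0.25), between (0.25 to 0.75), with NR4A1 WT (0.75 to 1.25), or beyond either form. The GFP arrays are no part of the direct contrast, and these counts carry no test. Of the 3568 genes higher with NR4A1 WT, GFP lay with NR4A1 CEAA in 716 (20.1%), between in 1234 (34.6%), with NR4A1 WT in 1129 (31.6%), beyond NR4A1 CEAA in 230 and beyond NR4A1 WT in 259. Of the 2657 lower genes the counts were 643 (24.2%), 1140 (42.9%), 548 (20.6%), 226 and 100. The counts changed with the size of the difference. The position is divided by the difference between the forms, so that the spread of the arrays moves it more where that difference is small. How far this alone shifts the counts was not tested. Among the 205 genes higher by at least 2-fold, GFP lay with NR4A1 CEAA in 146 and with NR4A1 WT in 25, and among the 35 higher by at least 4-fold it lay with NR4A1 CEAA in 34 and between in 1. Among the 170 genes lower by at least 2-fold, GFP lay with NR4A1 CEAA in 68, between in 92 and with NR4A1 WT in 9. In 1150 of the higher genes and 998 of the lower ones every NR4A1 WT array was on the opposite side of all GFP arrays from every NR4A1 CEAA array. Over all 19775 genes tested, whether past the test or not, this order was found in 1182 with NR4A1 WT higher and in 1014 with NR4A1 WT lower.

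**Figure D3:**
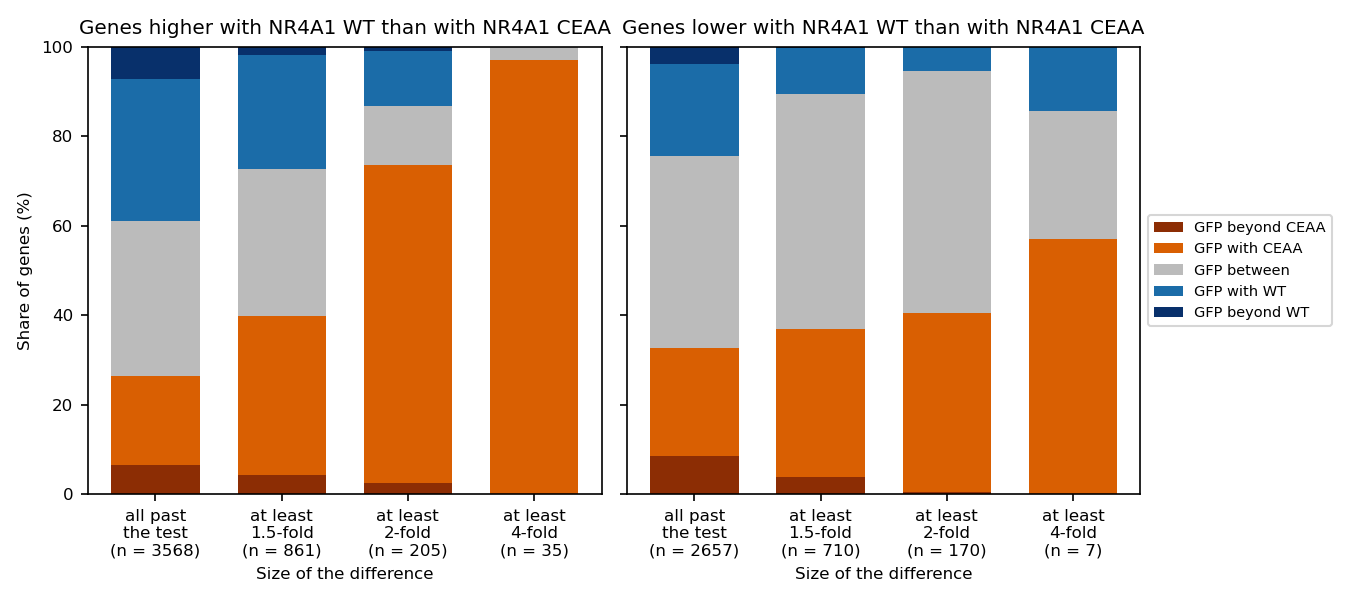
Stacked bars give the share of genes (%, vertical axis) by the position of GFP relative to NR4A1 CEAA and NR4A1 WT, for genes higher (left) and lower (right) with NR4A1 WT, over all genes past the test and those at least 1.5-, 2- and 4-fold apart. GFP lay with NR4A1 CEAA in 716 of 3568 higher genes and in 34 of the 35 that differed by at least 4-fold.

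In genes counted as having GFP with NR4A1 WT, NR4A1 CEAA lay further from the control than NR4A1 WT did. PSMC3, an ATPase of the proteasome cap, read 11.07, 11.24 and 11.16 with NR4A1 WT, 9.67 and 9.79 with NR4A1 CEAA, and 10.99, 10.94 and 11.06 with GFP. The direct difference was 1.42 ± 0.07 (adjusted p = 1.1e-05), and the NR4A1 CEAA arrays alone were low. SLC25A11, the mitochondrial carrier of oxoglutarate, differed by 1.49 with its other probe set also higher, and CD37, a leukocyte tetraspanin, by 1.30 with no other probe set past the test. MPDU1, a protein of dolichol sugar use, differed by 1.44, although its second brightest probe set gave -0.13. GALK1, the galactokinase of galactose metabolism, had GFP beyond NR4A1 WT. It read 8.09, 8.31 and 8.25 with NR4A1 WT, 6.72 and 6.74 with NR4A1 CEAA, and 8.60, 8.52 and 8.65 with GFP (1.49 ± 0.08 between the forms, adjusted p = 1.0e-05), so that both forms were below the control and NR4A1 CEAA was the lower. On the other side, RABL3, a small GTPase-like protein, read 7.10, 6.88 and 6.83 with NR4A1 WT, 8.42 and 8.33 with NR4A1 CEAA, and 7.32, 7.25 and 7.18 with GFP (-1.44 ± 0.09), with neither of its 2 other probe sets past the test.

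Some genes moved away from GFP in the same direction with both forms and further with NR4A1 WT. B3GNT2, a glycosyltransferase that builds lactosamine chains, read 11.40, 11.37 and 11.38 with NR4A1 WT, 10.36 and 10.26 with NR4A1 CEAA, and 9.98, 10.03 and 9.98 with GFP. In the brightest probe set all groups were separate, and the forms differed by 1.07 ± 0.06 (adjusted p = 1.1e-05). Both of its other probe sets were also higher with NR4A1 WT than with NR4A1 CEAA. In the second brightest, however, NR4A1 CEAA lay below GFP (-0.36, adjusted p = 0.041, limma, in the fit of all probe sets). In the third NR4A1 CEAA did not differ from GFP beyond the spread (-0.17), so that the shared direction rests on the brightest. SMPDL3A, an acid sphingomyelinase-like phosphodiesterase, differed by 1.54, although its second brightest probe set gave 0.16 and did not pass. ARC, an immediate early gene known from neurons, read 6.97, 6.90 and 6.67 with NR4A1 WT, 7.78 and 7.81 with NR4A1 CEAA, and 8.30, 8.27 and 8.16 with GFP, and PALD1, a phosphatase-like protein, followed the same order with a direct difference of -1.32. In ARC the forms differed by -0.95 ± 0.09 (adjusted p = 1.7e-04).

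RNA45SN5, annotated to the precursor of ribosomal RNA, read 11.30, 11.52 and 11.40 with NR4A1 WT, 8.34 and 8.14 with NR4A1 CEAA, and 9.31, 8.92 and 9.15 with GFP. NR4A1 WT was above and NR4A1 CEAA below the control, and the difference of 3.17 ± 0.12 (8.97-fold, adjusted p = 3.0e-06) was repeated by its other probe set. The gene has near-identical copies that the probes cannot tell apart, so that the reading is not of a single locus. TGFB1, the cytokine that restrains lymphocytes and myeloid progenitors, had the same order, with 9.98, 10.27 and 10.16 against 8.54 and 8.52 and GFP at 9.12, 9.08 and 9.07 (1.61 ± 0.08, adjusted p = 1.0e-05, other probe set also higher).

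Genes of ribosome assembly and of nucleotide, polyamine and one-carbon synthesis were lower with NR4A1 WT more often than all genes. Of 68 measured genes of ribosome assembly 49 were lower (72.1%, beside 13.4% of all genes) and 3 higher (4.41%, beside 18.0%) than with NR4A1 CEAA, with a median difference of -0.43 beside 0.03 for all genes. Rank Product passed 5 of the 68 as lower and 0 as higher (beside 0.875% and 1.89% of all genes). GFP lay with NR4A1 CEAA in 26 of the 49, between in 16 and beyond NR4A1 CEAA in 7. Against the shared GFP arrays, 58 were lower with NR4A1 WT (beside 10.3% of all genes, median -0.46). With NR4A1 CEAA 14 were lower and 12 higher (beside 12.1% and 7.14%, median 0.02). POLR1B, the second largest subunit of RNA polymerase I, read 8.96, 8.94 and 8.82 with NR4A1 WT, 10.13 and 10.18 with NR4A1 CEAA, and 9.96, 10.01 and 9.97 with GFP (-1.25 ± 0.06, adjusted p = 8.3e-06), and its 3 other probe sets were all lower. WDR3 and RRS1, assembly factors of the small and large subunits, were both lower (-1.05). The protein subunits of the finished cytosolic ribosome showed little difference, as 2 of 44 were higher and 0 lower in limma (0 lower at an unadjusted p under 0.05 and 0 by Rank Product), RPS9 by 0.33 and RPL3 by 0.16. The call of RPL3 (adjusted p = 0.045) was lost with the replicate block (adjusted p = 0.10), in the fit of the 5 arrays alone (adjusted p = 0.12) and in 7 of the 8 fits that left out 1 array (adjusted p 0.043 to 0.17). Of 34 genes of nucleotide, polyamine and one-carbon synthesis 18 were lower and 2 higher (median -0.21), among them PPAT, the committing enzyme of purine synthesis (-1.04, with its 2 other probe sets passing in opposite directions), and ODC1, that of polyamine synthesis (-0.69). Aminoacyl-tRNA synthetases, which charge tRNAs, were lower in 13 and higher in 5 of 31, and genes of the integrated stress response were lower in 12 and higher in 5 of 29. In the latter SLC7A5, a transporter of large amino acids, read 8.10, 8.12 and 8.18 with NR4A1 WT against 9.48 and 9.49 with NR4A1 CEAA and 9.46, 9.47 and 9.56 with GFP. Its NR4A1 CEAA values lay within the range of GFP, and the forms differed by -1.35 ± 0.06 (adjusted p = 4.7e-06).

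Mitochondrial and proteasome genes were higher with NR4A1 WT than with NR4A1 CEAA, and there it was more often NR4A1 CEAA that lay away from the control. The counts between the forms stand beside 18.0% of all genes higher and 13.4% lower. Of 54 respiratory chain genes 35 were higher and 1 lower (median 0.27), of 55 mitochondrial ribosomal protein genes 31 were higher and 7 lower (0.22), and of 29 proteasome genes 19 were higher and 0 lower in limma (0.27, with 0 lower at an unadjusted p under 0.05 and 0 by Rank Product). Rank Product passed only 1 gene as higher in each of these 3 lists (beside 1.89% of all genes). Among the members higher in limma GFP lay with NR4A1 WT in 23 of 35, 18 of 31 and 11 of 19. Against GFP, 28, 36 and 15 genes of these lists were lower with NR4A1 CEAA (medians -0.21, -0.29 and -0.20), beside 12.1% of all genes. With NR4A1 WT 6 respiratory chain genes were higher, 2 mitochondrial ribosomal protein genes were higher and 17 lower, and 3 proteasome genes were higher and 1 lower (medians of the 3 lists 0.06, -0.07 and 0.05). Over all genes 9.97% were higher and 10.3% lower with NR4A1 WT than with GFP. Mitochondrial ribosomal protein genes were thus lower more often than all genes with NR4A1 WT too. UQCRC1, a core protein of respiratory complex III, read 11.37, 11.56 and 11.56 with NR4A1 WT, 10.58 and 10.53 with NR4A1 CEAA, and 11.26, 11.27 and 11.31 with GFP (0.94 ± 0.07, adjusted p = 5.2e-05). MRPL37, a protein of the large mitochondrial ribosomal subunit, differed by 0.64 ± 0.06 and PSMD3, a scaffold of the proteasome lid, by 0.62 ± 0.07. In glycolysis 10 of 20 genes were higher and 2 lower, and this list joined both patterns. PFKM, the muscle form of phosphofructokinase, read 7.34, 7.01 and 7.24 with NR4A1 WT against 4.997 and 5.16 with NR4A1 CEAA and 5.15, 5.37 and 5.12 with GFP, as in ENO3, whereas GFP lay with NR4A1 WT in 7 of the 10.

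Mitosis genes were mostly higher among those that passed. Of 48 mitosis genes 29 were higher (60.4%, beside 18.0% of all genes) and 1 lower (2.08%, beside 13.4%), with a median of 0.23. Against GFP 25 were higher with NR4A1 WT (beside 9.97% of all genes, median 0.23). With NR4A1 CEAA 6 were higher and 11 lower than with GFP (beside 7.14% and 12.1%, median 0.01). CDC25C, the phosphatase that opens mitosis, read 8.26, 8.46 and 8.29 with NR4A1 WT, 7.25 and 7.32 with NR4A1 CEAA, and 7.44, 7.50 and 7.62 with GFP (1.05 ± 0.08), with its 2 other probe sets passing in opposite directions. AURKB, the kinase of the chromosomal passenger complex, was higher by 0.90 in its brightest probe set and lower (-0.35) in the other, and no direction is given for it. DNA replication was mixed, as 15 of 42 genes were higher (35.7%, beside 18.0% of all genes) and 6 lower (14.3%, beside 13.4%), with a median of 0.05 beside 0.03, and with CDC6, the loader of the replicative helicase, higher by 0.83 and MCM5, a subunit of that helicase, by 0.71.

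The remaining groups of cell machinery are given beside the 18.0% of all genes that were higher and the 13.4% that were lower. Small GTPases were higher in 21 (36.8%) and lower in 5 (8.77%) of 57 measured genes, with RIT1, a Ras-like GTPase, at 1.27 ± 0.11 and 3 of its 4 other probe sets higher. Of 47 genes of transport between the endoplasmic reticulum and the Golgi 20 (42.6%) were higher and 7 (14.9%) lower. The actin cytoskeleton divided into 15 higher (28.3%) and 10 lower (18.9%) of 53, with CORO1A, the leukocyte coronin, at 1.05 and TPM4, a tropomyosin, at -1.14 in a probe set that the second brightest did not repeat. Phosphatases divided into 19 higher and 12 lower of 54, chaperones into 12 and 9 of 38, chromatin regulators into 15 and 16 of 57, and cholesterol genes into 7 and 4 of 19. Genes for zinc finger proteins with a KRAB domain, which silence repeats, were lower with NR4A1 WT in 31 (40.3%) and higher in 4 of 77 (median -0.18). Here 24 were higher and 2 lower with NR4A1 CEAA than with GFP (beside 7.14% and 12.1% of all genes, median 0.14). With NR4A1 WT these were 4 and 8 (beside 9.97% and 10.3%, median 0.00). An example is ZNF440, which read 4.97, 4.58 and 4.77 with NR4A1 WT, 5.67 and 5.74 with NR4A1 CEAA, and 4.89, 5.05 and 4.93 with GFP, although neither of its 2 other probe sets passed. Splicing factors of the SR and hnRNP families were lower in 18 and higher in 7 of 47, and RBM25, a splicing regulator, was lower in all 6 other probe sets too (-0.66 ± 0.07). Of 9 nuclear long noncoding RNAs 2 were lower, MALAT1 and KCNQ1OT1. The latter stood at the threshold (-0.27, adjusted p = 0.0497) and lost the call in 7 of the 8 fits that left out 1 array (adjusted p 0.0077 to 0.26) and with the replicate block (adjusted p = 0.0503), and the mean of its probe sets gave -0.015, so that the count rests on MALAT1.

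**Figure D4:**
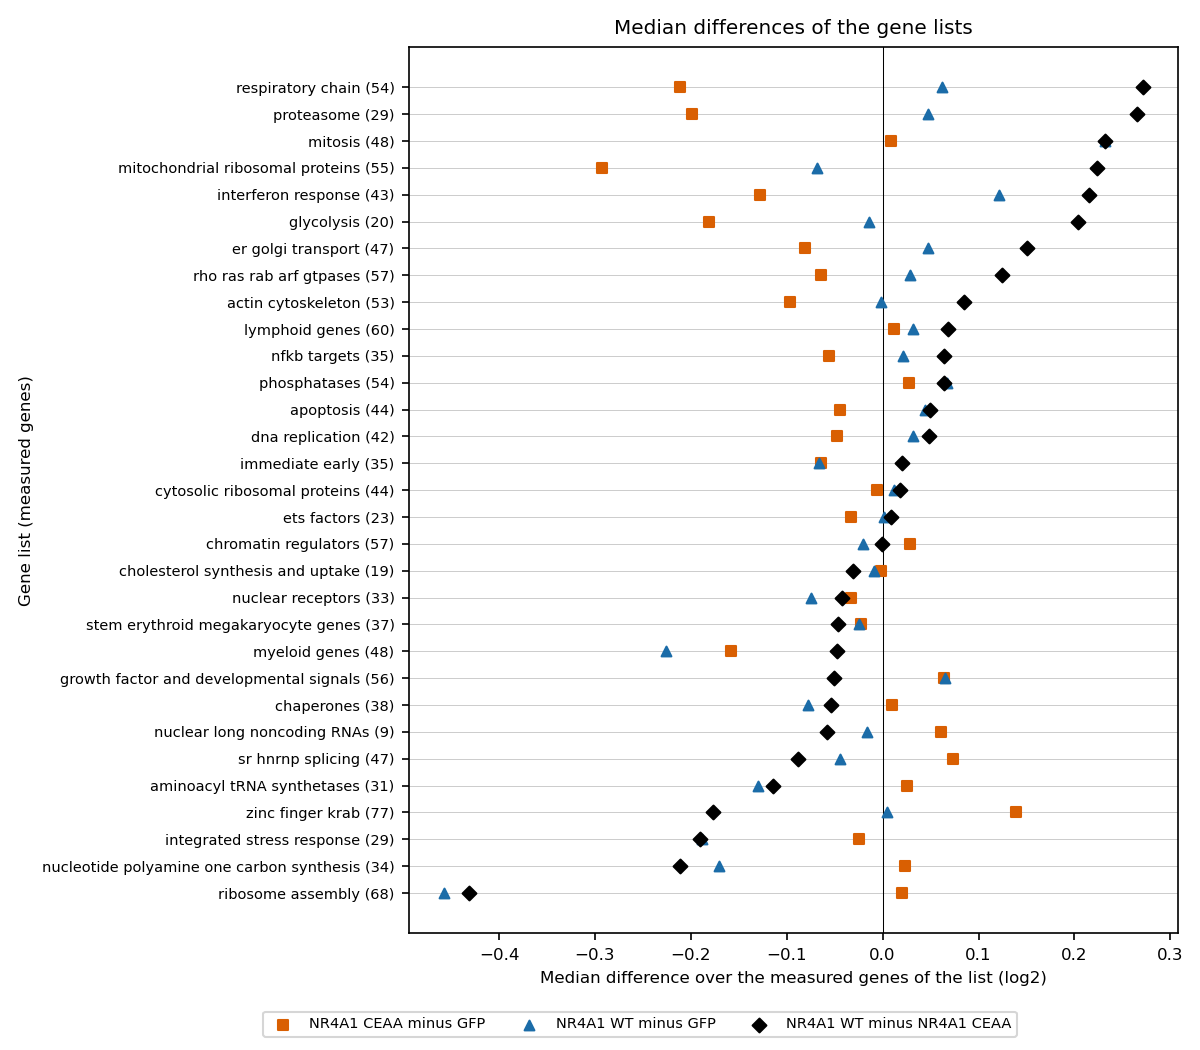
For each gene list (number of measured genes in brackets) the median over its genes is given on the log2 scale for NR4A1 WT minus NR4A1 CEAA (diamonds), NR4A1 WT minus GFP (triangles) and NR4A1 CEAA minus GFP (squares), which share arrays. Ribosome assembly has its diamond at -0.43 with the square near 0, while respiratory chain, proteasome and mitochondrial ribosome have diamonds of 0.22 to 0.27 with squares of -0.29 to -0.20.

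Signaling and immune genes included some of the strongest single differences. Of 43 interferon response genes 20 (46.5%, beside 18.0% of all genes) were higher and 2 (4.65%, beside 13.4%) lower with NR4A1 WT (median 0.21). OAS1, an antiviral oligoadenylate synthetase, read 6.46, 6.60 and 6.46 with NR4A1 WT, 4.91 and 5.19 with NR4A1 CEAA, and 5.58, 5.23 and 5.06 with GFP (1.46 ± 0.15, adjusted p = 2.2e-04, other probe set also higher). IRF9, a partner of STAT factors, had GFP between both forms and differed by 1.18. Of 35 NFkB targets 12 (34.3%) were higher and 4 (11.4%) lower. CD83, a marker of activated antigen-presenting cells, read 9.90, 9.91 and 9.91 with NR4A1 WT against 7.95 and 7.93 with NR4A1 CEAA and 7.87, 7.84 and 7.88 with GFP (1.97 ± 0.05, adjusted p = 6.7e-07), and BCL2A1, an inhibitor of apoptosis, read 9.42, 9.65 and 9.24 against 7.26 and 7.41 (2.10 ± 0.14). GFP lay with NR4A1 CEAA in both, whereas CXCL8 of the same list was lower. Immediate early genes divided into 8 higher (22.9%) and 8 lower (22.9%) of 35, with FOSL2, a partner of JUN in AP-1, at -1.67 ± 0.10. Apoptosis genes were higher in 15 (34.1%) and lower in 9 (20.5%) of 44, among them DAPK1, a death-associated kinase, at 1.71 with its other probe set not past the test.

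Lymphoid genes, IL7R included, were higher in 19 (31.7%, beside 18.0% of all genes) and lower in 5 (8.33%, beside 13.4%) of 60. ID3, an inhibitor of E proteins and a target of bone morphogenetic protein signals, read 7.45, 7.63 and 7.50 with NR4A1 WT, 4.76 and 4.58 with NR4A1 CEAA, and 5.21, 5.49 and 5.03 with GFP (7.22-fold, adjusted p = 6.1e-06). ID2, of the same family, was higher by 1.32 ± 0.10 with its other probe set also higher. Myeloid genes were higher in 10 (20.8%) and lower in 12 of 48, with FCGR2B and TREM2 on one side and LGALS12, a galectin of myeloid and fat cells, on the other (7.70, 7.58 and 7.54 against 8.98 and 9.02, with GFP at 9.27, 9.35 and 9.38). Stem, erythroid and megakaryocyte genes were lower in 9 (24.3%) and higher in 5 (13.5%) of 37. MYB, a transcription factor of progenitors, read 11.33, 11.10 and 11.23 with NR4A1 WT against 12.28 and 12.33 with NR4A1 CEAA and 12.08 in all 3 GFP arrays (-1.08 ± 0.07, adjusted p = 3.2e-05), and its other probe set was lower too. Nuclear receptors were higher in 5 (15.2%) and lower in 7 (21.2%) of 33, near the shares of all genes (18.0% and 13.4%). NR0B2, the small heterodimer partner that represses other receptors, read 7.36, 7.74 and 7.59 against 5.30 and 5.47, with GFP at 5.45, 5.02 and 5.38 (2.18 ± 0.15, adjusted p = 3.4e-05), and VDR, the vitamin D receptor, was lower (-1.01). ETS factors divided into 3 higher (13.0%) and 7 lower (30.4%) of 23, and ETV6 was lower (-1.02) with 3 of its 4 other probe sets. Growth factor and developmental genes were higher in 10 (17.9%, beside 18.0% of all genes) and lower in 12 (21.4%, beside 13.4%) of 56.

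The genes that the study itself lists as induced or repressed were next set between both forms. The study chose them on these samples, so that their direction is not independent evidence. Of 11 genes in the list of induced genes 8 were higher with NR4A1 WT than with NR4A1 CEAA (median 0.67) and 3 did not pass, and of 15 measured genes in that of repressed genes 12 were lower (median -0.70, or -0.29 with the mean of all probe sets of a gene) and 3 did not pass. STAT5A, the signal transducer of cytokine receptors whose promoter is shown above, read 10.39, 10.29 and 10.22 with NR4A1 WT, 9.43 and 9.55 with NR4A1 CEAA, and 9.37, 9.44 and 9.39 with GFP (0.82 ± 0.07, adjusted p = 9.5e-05). IL15, a growth factor of lymphocytes, differed by 0.73 ± 0.10. In these the NR4A1 CEAA arrays were near GFP.

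Other genes of these lists also departed from GFP with NR4A1 CEAA. FLT3, the receptor tyrosine kinase of progenitors, read 7.70, 7.84 and 7.87 with NR4A1 WT, 7.11 and 7.16 with NR4A1 CEAA, and 6.64, 6.42 and 6.77 with GFP, so that NR4A1 CEAA lay above the control by 0.52 (adjusted p = 0.011) and NR4A1 WT above NR4A1 CEAA by 0.67 (adjusted p = 0.0016). HDAC9, a class II histone deacetylase, read 7.46, 7.34 and 7.30, then 7.11 and 6.90, then 6.31, 6.30 and 6.46 in the same order of groups, and the forms differed by 0.36 (adjusted p = 0.015), which was lost without NR4A1 CEAA replicate 2 (0.25, adjusted p = 0.13). PTPRC, the leukocyte phosphatase CD45, read 10.60, 10.33 and 10.46 with NR4A1 WT and 10.47 and 10.38 with NR4A1 CEAA. These overlapped (0.04 ± 0.09, adjusted p = 0.82), while both forms were above GFP at 9.97, 10.04 and 9.83, and its other probe sets disagreed, with the second brightest at -0.62 (adjusted p = 0.023 in the fit of all probe sets) and the third at 0.74 (adjusted p = 4.7e-04). IKZF1 (0.05) and ITGB1 (-0.12) did not pass either, and both changed sign under alternatives.

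Among the repressed genes BCL2, the inhibitor of apoptosis, read 6.59, 6.53 and 6.73 with NR4A1 WT, 8.28 and 8.27 with NR4A1 CEAA, and 8.12, 8.27 and 8.18 with GFP (-1.65 ± 0.08, adjusted p = 6.2e-06), although only 1 of its 3 other probe sets was lower and the second brightest gave 0.39. CBFA2T3, a corepressor related to ETO, read 5.72, 5.45 and 5.20 against 6.77 and 6.93 (-1.39 ± 0.13), and ERG, an ETS factor of stem cells, was lower (-0.70 ± 0.05). In their brightest probe sets NR4A1 CEAA did not differ from GFP beyond the test's threshold in these 3. In the second brightest of ERG, NR4A1 CEAA was above GFP by 0.47 (adjusted p = 0.041, limma, in the fit of all probe sets). In contrast MATK, a kinase that inhibits SRC family members, read 8.20, 8.36 and 8.27 with NR4A1 WT and 8.36 and 8.35 with NR4A1 CEAA, which was not separated by the test (-0.08 ± 0.06, adjusted p = 0.37), while both were below GFP at 8.94, 8.88 and 8.92. HMOX1 (0.10 ± 0.19) was likewise not separated. IGFBP4 did not pass either (-0.30 ± 0.10, adjusted p = 0.059) but passed under 6 alternatives, among them quantile normalization again (adjusted p = 0.031) and the fit without NR4A1 WT replicate 2 (adjusted p = 0.0036). In HMOX1 and IGFBP4 NR4A1 CEAA differed from GFP by -0.85 and -0.67. SPI1, the myeloid master regulator PU.1, read 6.01, 5.72 and 5.89, then 6.27 and 6.33, then 6.81, 6.84 and 6.89 in NR4A1 WT, NR4A1 CEAA and GFP. All groups were apart, and the forms differed by -0.43 ± 0.09 (adjusted p = 0.0057).

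**Figure D5:**
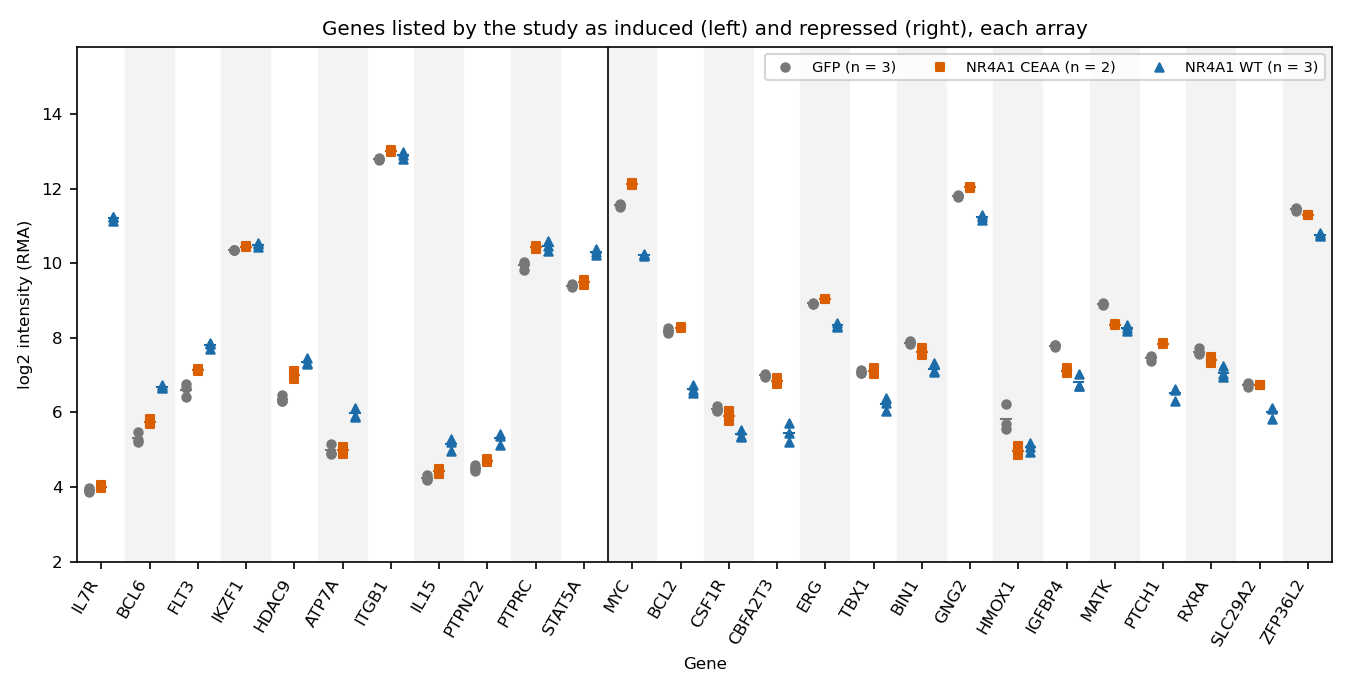
Each symbol is the log2 intensity of 1 array for genes that the study lists as induced (left of the line) and repressed (right), with GFP (circles, n = 3), NR4A1 CEAA (squares, n = 2) and NR4A1 WT (triangles, n = 3) and short lines at the group means. NR4A1 CEAA sits with GFP in IL7R, STAT5A and BCL2, between in FLT3 and HDAC9, and with NR4A1 WT in PTPRC and MATK.

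A further reading came from the other probe sets of a gene on the same arrays, which are not replicates. Of the 2074 higher genes that have any, 832 (40.1%) had another probe set that passed in the same direction and 253 (12.2%) one that passed in the opposite direction, and of 1859 lower genes these were 918 (49.4%) and 150 (8.07%). At 2-fold or more the same direction was found in 59.2% of higher and 73.5% of lower genes and the opposite in 1.60% and 3.92%. Among higher genes the share with the same direction was 48.1% where GFP lay with NR4A1 CEAA, 35.0% where it lay with NR4A1 WT and 25.8% where it lay beyond NR4A1 WT. Calls were fewer among dim probe sets, with 171 higher and 86 lower among the 3955 genes of lowest mean level against 1337 and 974 among the 3955 of highest.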

How the data were processed

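Of the 8 arrays of the series, 5 were compared (3 with NR4A1 WT, 2 with NR4A1 CEAA) and 3 with GFP joined the fit. The deposited table holds log2 intensities per probe set from RMA as run by the authors, which corrects the background, normalizes arrays by quantiles and summarizes probes; the program's version is not given in the sources used here. They ran from 2.29 to 14.97, with array medians of 4.755 to 4.802. The array number limits the precision. No detection call was used.

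Of 54613 probe sets, 41091 had exactly 1 gene symbol in the platform annotation, 1801 several and 11721 none. The brightest of each gene was kept (19775 genes, 10523 with several probe sets, 19735 matched to RefSeq by identifier).

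All 8 arrays were fitted with limma 3.58.1 (lmFit and eBayes, R 4.3.3; no covariate, 8.04 degrees of freedom), and p was adjusted by Benjamini-Hochberg across the whole table, with a threshold of 0.05. Alternatives included Rank Product with 100 permutations, an intensity trend, array weights, the 5 arrays alone, a dim filter, 3 scalings, other probe sets, thresholds and each array left out.

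Genes named are the 12 largest differences per direction with no overlap of arrays, the 4 largest per position of GFP, up to 3 per gene list, those the paper names, and the NR4A family (157 in all). The 34 gene lists, the 6 marker lists and the comparison were chosen with earlier results of these data known. Batches are not given in the labels.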

Additional observations from a re-analysis of the deposited data

Results flagged for a closer look

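In 581 genes (307 higher and 274 lower with NR4A1 WT) the direct difference passed, both forms passed the test against GFP in opposite directions, and all arrays of each form lay on opposite sides of all 3 GFP arrays. Both comparisons share those arrays, and the difference between the forms is given by the direct contrast in limma. Among them are 37 of the named genes, and TMT1A and SCAT1, which are given for their size and were named after their values were seen. Over all 19775 genes tested, the order of the arrays alone, without any test, was found in 1182 with NR4A1 WT higher and in 1014 with NR4A1 WT lower.

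NR4A1 WT was above and NR4A1 CEAA below GFP in TREM2, with a direct difference of 4.077 (adjusted p = 8.6e-08, 3.48 and -0.60 against GFP). RNA45SN5 had a direct difference of 3.165 (2.28 and -0.88 against GFP). TMT1A differed by 3.039 (2.68 and -0.36), where 2 of 3 further probe sets were higher, and SCAT1 by 2.886 (2.46 and -0.43). The same order held with smaller direct differences in ID3 (2.852), STYXL2 (1.924), M1AP (1.866), TGFB1 (1.608), PTPN9 (1.281), RIT1 (1.273), IRF9 (1.184), GBF1 (1.063), IFI35 (1.00), UQCRC1 (0.9413), SPC24 (0.8415), CDC6 (0.8251), MRPS18A (0.7439), MCM5 (0.7081), NDUFA8 (0.7038), COPG1 (0.6701), PSMD4 (0.6083) and RFC4 (0.5521). These orders were read in the brightest probe set of each gene, and other probe sets did not always repeat them. In the second brightest, NR4A1 CEAA minus GFP was 0.13 in RIT1 and -0.16 in M1AP and did not pass, whereas MRPS18A and MCM5 repeated the order. Between the forms, Rank Product did not pass MRPS18A, MCM5, NDUFA8, COPG1, PSMD4 and RFC4 (q of 0.072 to 0.23, threshold 0.05).

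NR4A1 WT was below and NR4A1 CEAA above GFP in KCTD12 at -2.224 (-1.48 and 0.75 against GFP), in JCAD at -2.145 (-1.84 and 0.30), in TRERF1 at -2.068 (-1.59 and 0.47) and in MYC at -1.907 (-1.33 and 0.57). Smaller direct differences of this order were found in NOG (-1.894), RABL3 (-1.44), PTCH1 (-1.336, turned in its second brightest probe set), TPM4 (-1.14), RRS1 (-1.046), PPAT (-1.037), ETV6 (-1.019), AMD1 (-0.8967), HDAC4 (-0.8282), GNG2 (-0.7974), INSIG1 (-0.7949), ODC1 (-0.6911) and RBM25 (-0.6622). Here too only the brightest probe set was read. In the second brightest, NR4A1 CEAA minus GFP was 0.20 in RABL3 and 0.026 in ETV6 and did not pass, whereas JCAD and HDAC4 repeated the order. Rank Product between the forms did not pass AMD1, HDAC4, GNG2, INSIG1, ODC1 and RBM25 (q of 0.070 to 0.18, threshold 0.05).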

How the results depend on the processing

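The main counts of 3568 higher and 2657 lower genes became 373 and 173 with Rank Product, 5611 and 5218 over all probe sets, 1414 and 1428 with the second brightest probe set (fewer genes have one), 861 and 710 at 1.5-fold or more, and 2424 and 1700 at an adjusted p under 0.01. With 1 array left out they ranged from 2432 to 3494 and from 1774 to 2638. Without NR4A1 CEAA replicate 1 they were 2432 and 1794, and without NR4A1 CEAA replicate 2 they were 2650 and 1774. The lone array is then assumed to vary like the other groups. Same-numbered arrays correlated at -0.04 to 0.09 in their deviations from the group means, and other pairs at -0.09 to 0.09. Such deviations cancel within each group, so that they cannot show whether the replicate numbers pair the samples. A replicate block gave 3095 and 2268. The share of higher genes with GFP at NR4A1 CEAA was 35.5% at 1.5-fold or more against 20.1%, and that of lower genes with GFP at NR4A1 WT was 10.3% against 20.6%. Scalings moved the median of all genes by up to 0.03 and turned the sign of the list medians of cytosolic ribosomal proteins, immediate early genes, apoptosis, chromatin regulators and ETS factors, for which no direction is given.

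Of the 157 named genes 54 lost the call under Rank Product, the test named by the study, and 103 kept the same result. A second probe set exists for 107 of the 157, and 100 of these passed in the brightest. In the second brightest 14 of the 100 changed sign, at -0.13 (MPDU1), 0.18 (GAS6-AS1), -0.057 (PLEKHA5), -0.10 (PPP5C), -0.18 (FARSA), 0.045 (TUBE1), -0.35 (AURKB), -0.27 (RHOC), -0.21 (COPE), -0.30 (CLK3), 0.39 (BCL2), -0.14 (NCOA2), 0.22 (PTCH1) and 0.21 (RXRA). Another 38 had the same sign and did not pass, and 48 passed with the same sign. Of the 7 that had not passed, 5 changed sign there, at -0.62 (PTPRC), 0.26 (FLI1), 0.12 (ITGB1), 0.17 (NR4A3) and 0.0027 (NR4A1). With the mean of probe sets 4 changed sign, at 0.27 (FLI1), 0.059 (ITGB1), 0.073 (NR4A3) and 0.020 (NR4A1). Among genes not past the test, quantile normalization again gave -0.027 (IKZF1) and -0.040 (PTPRC), cyclic loess -0.0072 (PTPRC), centering 0.023 (NR4A1) and the replicate block 0.042 (NR4A1). With 1 array left out, the differences ran from -0.032 to 0.10 in PTPRC, from -0.028 to 0.22 in HMOX1, from -0.13 to 0.049 in FLI1, from -0.13 to 0.37 in CDKN2B, from -0.040 to 0.027 in NR4A1 and from -0.14 to 0.015 in NR4A3. The cause was not tested.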
